A study of Mus musculus with 8 samples.

Results

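The cytosolic ribosomal protein genes of mouse liver were followed through fasting and re-feeding in control mice and in mice lacking Med23 in the liver. Members were chosen by gene symbol: Rpl or Rps followed by a number, plus Rplp0, Rplp1, Rplp2 and Rpsa, without the Rps6k kinases and without pseudogenes marked -ps. This matched 84 symbols, of which 81 reached 1 FPKM (fragments counted on a transcript, divided by its length and by the library's mapped fragments) in at least 2 libraries, out of 10865 loci that passed the same filter and 23699 loci listed. Of the 81 members, 48 belonged to the large and 33 to the small ribosomal subunit, and all 81 were at or above 1 FPKM in every one of the 8 libraries, so that no member passed the filter through 1 group alone. The 3 symbols below the filter were the paralogs Rpl10l, listed at 0 in all libraries, Rpl39l, with at most 0.565 FPKM, and Rpl3l, with at most 0.314 FPKM. The symbol Rps4y2 corresponds to Rps4l in RefSeq, where it is classed as a transcribed pseudogene.

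Polyadenylated RNA had been sequenced from whole liver of 8-week-old male C57/BL6 mice, with 2 mice and 1 library per mouse in each of 4 groups. The groups were re-fed LMKO, re-fed control, fasted LMKO and fasted control. LMKO is a liver-specific knockout of Med23, a Mediator subunit, part of the bridge between bound transcription factors and RNA polymerase II. The Cre driver and the cells it acts in are not named in the labels. Fasted mice had no food for 24 h, and re-fed mice had the same 24 h fast followed by 24 h with food, so every animal had been fasted and no freely fed group was included.

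The ribosome carries one copy of nearly every ribosomal protein, and cells make these proteins in matched amounts together with ribosomal RNA. Most ribosomal protein mRNAs are short, abundant and begin with a run of pyrimidines, the terminal oligopyrimidine (TOP) motif, through which mTORC1, the kinase complex that senses nutrients and insulin, controls their translation. Liver loses protein and ribosomes during a fast and regains them with food. The values here are amounts of mRNA relative to the other mRNAs of a library, not translation and not ribosome number.

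Several properties of the libraries touch these results. Total fragments of each library are unknown, and relative depths read from low values lay between 0.973 and 1.13. Med23, the targeted gene, had 1.61 and 1.75 FPKM in re-fed LMKO libraries, against 2.86 and 2.33 FPKM in re-fed control libraries, and 2.35 and 2.18 FPKM in fasted LMKO libraries, against 2.87 and 2.93 FPKM in fasted control libraries; the whole-locus FPKM cannot tell an mRNA with a deleted exon from an intact one. Summed levels of 10 Kupffer cell and macrophage markers were 56.6 to 125 FPKM in re-fed and 115 to 163 FPKM in fasted libraries, with 0 of the 10 tested higher and 5 lower on re-feeding. Those of 10 sinusoidal endothelial markers were 56.3 to 79.4 and 99.2 to 140 FPKM in re-fed and fasted libraries, with 0 higher and 9 lower. Of 9 stellate cell markers 1 was higher and 3 were lower, and of 3 tested cholangiocyte markers 1 was higher and 0 lower. Among all loci tested 32.4% were higher and 20.6% lower (adjusted p under 0.05, both genotypes together). The 12 hepatocyte markers summed to 29531 to 48324 FPKM in re-fed and 28376 to 31802 FPKM in fasted libraries. Of the 11 tested, 5 were higher and 5 lower on re-feeding, and 1 marker, Alb, was listed at 0 throughout. The 8 T and NK cell and 5 B cell markers all stayed below the filter, and the 8 loci of pancreatic acinar markers summed to 23.5 to 48.6 FPKM in re-fed and 4.14 to 9.90 FPKM in fasted libraries, with 7 at 0 in all. The 7 markers of proliferating cells summed to 19.8 to 29.6 FPKM in re-fed and 12.9 to 20.9 FPKM in fasted libraries, and Rn45s, the ribosomal RNA precursor, ran from 802.5 to 3448 FPKM in re-fed and 185.3 to 1324 FPKM in fasted libraries. The part of these shifts in the ribosomal protein results was not tested, and in bulk tissue fewer cells of a type and less RNA per cell cannot be told apart. The deposited names carry 1 prefix in all fasted and another in all re-fed libraries; if that prefix marks a batch, batch and feeding cannot be told apart, whereas LMKO and control were compared within each prefix.

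The promoters around the annotated start are shown for the genes whose re-feeding response, described further on, was largest and smallest, because the pyrimidine-rich start is the sequence feature these genes are known for. They were picked after their values were seen, among members with a mean level of at least 20 FPKM and an entry in the promoter table used. Members on 1 chromosome were also left out of the choice. Each line runs from 50 bases before the start to 15 bases after it, 5′ to 3′, and capitals mark runs of 6 or more pyrimidines. For a gene with several listed starts, the start with the longest pyrimidine run in this window was taken. Rpl22 had 2 listed starts and the other genes had 1.
Rpl22l1: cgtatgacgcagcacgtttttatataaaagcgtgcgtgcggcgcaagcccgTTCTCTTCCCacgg
Rpl39: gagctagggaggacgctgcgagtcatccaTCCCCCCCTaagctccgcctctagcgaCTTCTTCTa
Rpl12: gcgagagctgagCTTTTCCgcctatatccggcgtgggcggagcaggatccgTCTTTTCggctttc
Rps12: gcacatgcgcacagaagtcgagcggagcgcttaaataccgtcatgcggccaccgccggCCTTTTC
Rpl5: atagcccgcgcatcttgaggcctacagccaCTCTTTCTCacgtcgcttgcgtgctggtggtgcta
Rpl22: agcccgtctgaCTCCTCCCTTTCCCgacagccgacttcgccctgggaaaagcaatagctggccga
Rps6: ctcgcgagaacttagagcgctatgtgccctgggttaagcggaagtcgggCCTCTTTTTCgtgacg
Rps3: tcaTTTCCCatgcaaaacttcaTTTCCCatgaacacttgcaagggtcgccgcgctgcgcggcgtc
The first 4 rose most and the last 4 rose least among the members that could be drawn from. The windows come from RefSeq on GRCm38.p6: Rpl22l1 at chr3:28805458-28805522 (plus strand), Rpl39 at chrX:37085208-37085272 (minus), Rpl12 at chr2:32961662-32961726 (plus), Rps12 at chr10:23787195-23787259 (minus), Rpl5 at chr5:107900478-107900542 (plus), Rpl22 at chr4:152325676-152325740 (plus), Rps6 at chr4:86857353-86857417 (minus) and Rps3 at chr7:99483695-99483759 (minus). The longest pyrimidine run in the window was 10, 9, 7 and 7 bases in the first 4 and 9, 14, 10 and 6 bases in the last 4. In the first 4 and in Rps6 a marked run lay past or across the start, while those of Rpl5, Rpl22 and Rps3 lay wholly before it. Whether run length or position goes with the response was not tested.

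The promoter table held 60 of the 81 members among 27025 genes. A run of at least 10 pyrimidines on the sense strand within 50 bases of the start was found in 43 of the 60 members (71.7%), and in 20.6% of all genes. The letters CTCTTT on the sense strand of the same window, which can lie inside such a run, were found in 19 members (31.7%), and in 4.69% of all genes. CCGGAAG on either strand, the core bound by ETS-family factors such as Gabpa, was found between 250 bases before and 50 bases after the start in 25 members (41.7%), and in 9.93% of all genes. GGGCGG on either strand, the GC box bound by Sp1, was found in 38 members (63.3%), and in 38.2% of all genes. CACGTG, the E-box bound by Myc and Usf1, was found in 6 members (10%), and in 8.09% of all genes, and TATAAA on the sense strand in the 50 bases before the start in 1 member, and in 3.15% of all genes. These counts describe letters in a window and say nothing of binding.

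Ribosomal protein mRNAs were among the more abundant in liver. The median of the members' mean level over all 8 libraries was 311.5 FPKM for the large and 385.5 FPKM for the small subunit, against 7.32 FPKM over all loci tested, and 71 members averaged 100 FPKM or more. The highest large subunit genes were Rplp1, a stalk protein that recruits elongation factors (968.9 FPKM), Rpl41, the shortest of the ribosomal proteins (877.1 FPKM), and Rpl38 (830.0 FPKM). The highest small subunit genes were Rps18 (801.1 FPKM), Rps12 (658.2 FPKM) and Rps28 (630.9 FPKM). The order of neighbours this close is not separated by the spread over libraries, which includes the change with feeding.

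Only 6 members averaged under 20 FPKM: Rpl26, Rpl30 and Rpl34 in the large subunit, and Rps15a, Rps4y2 and Rps27 in the small subunit. Rpl34 averaged 5.47 FPKM at chr3:130429749-130433226 (mm9), while a locus named Rpl34-ps1 at chr3:130429755-130433247 (mm9) was listed at 323 to 806 FPKM. Rps27 averaged 1.81 FPKM, although its close paralog Rps27l averaged 326.1 FPKM. Ribosomal protein genes have many processed copies in the mouse genome, and the sources do not say how reads that match several copies were shared, so the levels of these 6 members are uncertain.

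Ribosomal protein mRNA took a larger share of the library after re-feeding, and the largest share in re-fed LMKO liver. Large subunit members summed to 25621 and 25679 FPKM in re-fed LMKO libraries, 17983 and 17543 FPKM in re-fed control libraries, 11681 and 10490 FPKM in fasted LMKO libraries, and 10821 and 9504 FPKM in fasted control libraries. Small subunit members summed to 19240 and 19090 FPKM in re-fed LMKO, 13219 and 13261 FPKM in re-fed control, 9102 and 8170 FPKM in fasted LMKO, and 8329 and 7261 FPKM in fasted control libraries. Both subunits were in the same order: re-fed LMKO above re-fed control, both above all fasted libraries, and the 2 fasted genotypes overlapping.

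The sum of all members was 44815 ± 65 FPKM in re-fed LMKO, against 19722 ± 1501 FPKM in fasted LMKO liver, a ratio of 2.27. It was 31002 ± 281 FPKM in re-fed control, against 17957 ± 1686 FPKM in fasted control liver, a ratio of 1.73 (SD, n = 2 each). LMKO over control gave 1.45 in the re-fed and 1.10 in the fasted state. As a percent of the summed FPKM of all loci, members held 7.51% and 7.71% in re-fed LMKO, 6.10% and 5.57% in re-fed control, 4.46% and 3.99% in fasted LMKO, and 4.16% and 3.70% in fasted control libraries. The summed FPKM of all loci itself ran between 453652 and 597650 and was higher after re-feeding, so the ratios of these percentages were smaller, at 1.80 for LMKO and 1.49 for control liver on re-feeding, and 1.30 for LMKO over control when re-fed. The large to small subunit ratio stayed between 1.28 and 1.36 in all libraries.

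**Figure D1:**
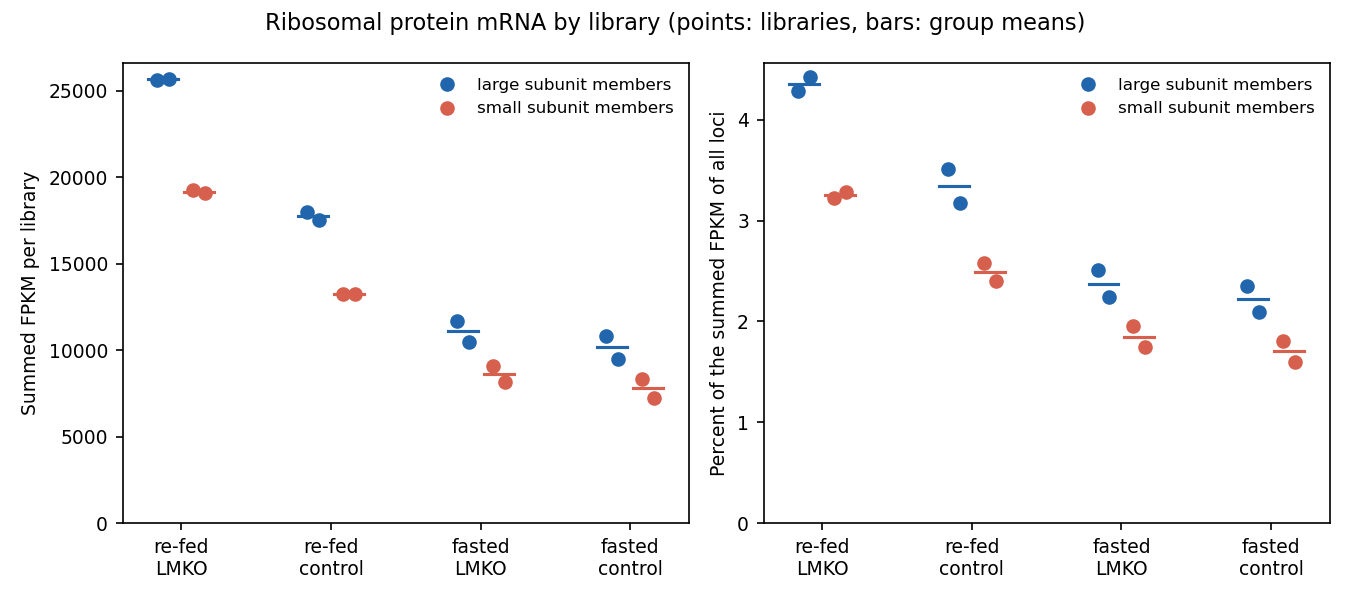
Summed FPKM of the 48 large (blue) and 33 small (red) subunit members in each library (left) and the same as a percent of the summed FPKM of all loci (right), by group. Points are libraries and bars are means of 2. Re-fed LMKO libraries held 25621 and 25679 FPKM of large subunit mRNA, against 9504 and 10821 FPKM in fasted control libraries.

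The first comparison asked how re-feeding after a fast changed these mRNAs, over both genotypes together (4 re-fed against 4 fasted libraries). Re-feeding raised 80 of the 81 members and lowered 1 (limma, adjusted p under 0.05). All 48 large and 32 of 33 small subunit members rose. Among all loci tested 32.4% rose and 20.6% fell. The median log2 fold change on the log2(FPKM + 1) scale was 0.98 for the large and 0.96 for the small subunit, against 0.10 over all loci, and the middle 50% of the members lay between 0.81 and 1.11. In 77 members the lowest re-fed library was above the highest fasted library, which held for 28.5% of all loci. In 1 member, Rps27, all re-fed libraries were below all fasted ones, which held for 17.4% of all loci. The rises ran from 0.39 (Rpl5) to 1.70 (Rpl22l1), with Rpl26, which averaged 15.2 FPKM, at 2.00.

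**Figure D2:**
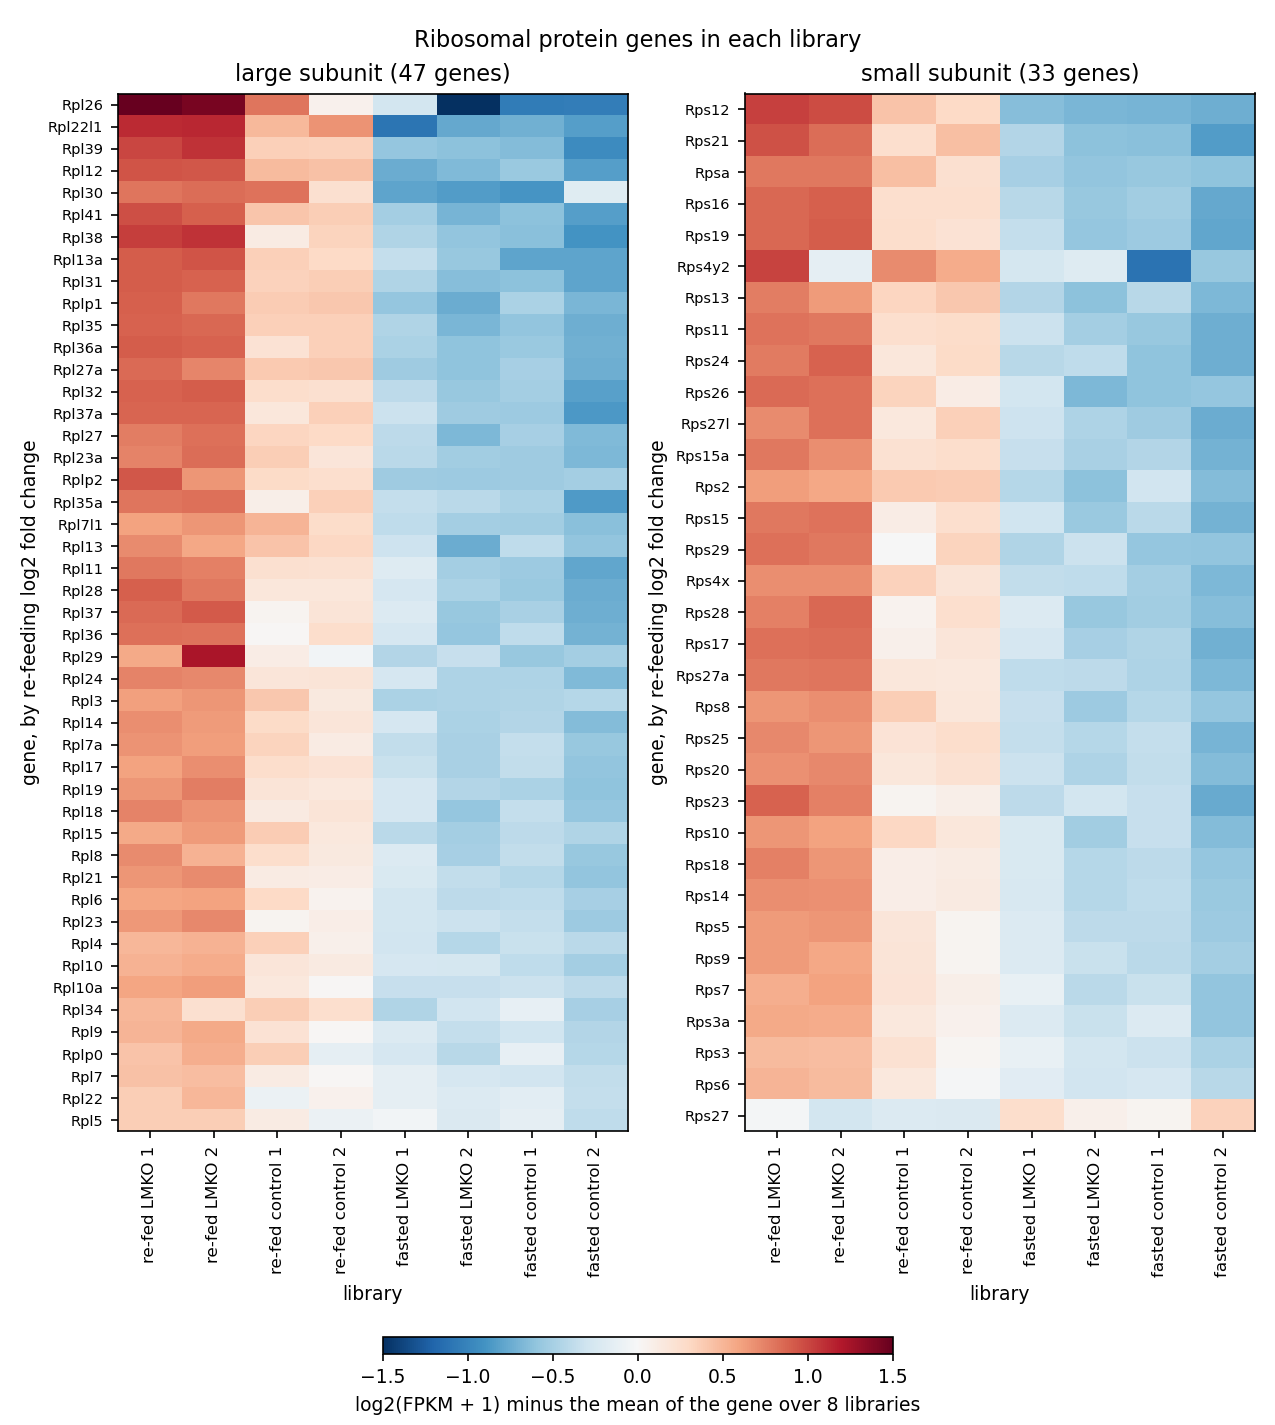
Each member's log2(FPKM + 1) in each library minus its mean over the 8 libraries (red higher, blue lower; the scale is cut at 1.5 in either direction), large subunit left (1 member not drawn) and small subunit right, ordered by the re-feeding log2 fold change. Both re-fed LMKO columns are red for nearly all genes, re-fed control columns mostly paler red, and fasted columns mostly blue, with Rps27 at the foot in the opposite colours.

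In the large subunit, Rpl22l1, a paralog that can take the place of Rpl22 in the ribosome (chr3:28704433-28706337, mm9), had 131.9 and 132.8 FPKM in re-fed LMKO, 84.5 and 97.1 FPKM in re-fed control, 27.7 and 34.9 FPKM in fasted LMKO, and 36.3 and 33.6 FPKM in fasted control libraries. Its log2 fold change on re-feeding was 1.70 ± 0.10 (SE; limma adjusted p = 0.000163), 3.25-fold. Rpl22 itself (chr4:151699987-151708180, mm9) had 61.3 and 67.0 FPKM in re-fed LMKO, 44.3 and 49.3 FPKM in re-fed control, 43.0 and 40.6 FPKM in fasted LMKO, and 42.2 and 36.7 FPKM in fasted control libraries. It rose by 0.42 ± 0.09 (SE; limma adjusted p = 0.00729), 1.34-fold.

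The paralog was therefore above its parent in all re-fed and below it in all fasted libraries. Rpl22l1 over Rpl22 was 2.15 and 1.98 in re-fed LMKO, 1.91 and 1.97 in re-fed control, 0.644 and 0.859 in fasted LMKO, and 0.859 and 0.917 in fasted control libraries. The longest annotated transcript is 552 bases for Rpl22l1 and 2051 bases for Rpl22, and the bearing of length on these values is described further on. For the other paralog of the large subunit, Rpl7l1 over Rpl7 was 0.0716 to 0.0831 in re-fed and 0.0516 to 0.0527 in fasted libraries, without overlap. Rpl7l1 rose by 1.02 ± 0.09 (SE; limma adjusted p = 0.00034) and Rpl7 by 0.52 ± 0.08 (SE; limma adjusted p = 0.00235).

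The next largest rises among well measured large subunit genes were Rpl39 and Rpl12. Rpl39, a short protein lining the exit tunnel for the growing chain, had 1135 and 1200 FPKM in re-fed LMKO, 724.7 and 718.1 FPKM in re-fed control, 376.8 and 367.9 FPKM in fasted LMKO, and 358.7 and 294.1 FPKM in fasted control libraries, a rise of 1.40 ± 0.09 (SE; limma adjusted p = 0.000199). Rpl12, which lies at the base of the stalk, had 631.9 and 628.4 FPKM in re-fed LMKO, 455.6 and 443.8 FPKM in re-fed control, 195.1 and 207.1 FPKM in fasted LMKO, and 222.9 and 183.9 FPKM in fasted control libraries, a rise of 1.40 ± 0.09 (SE; limma adjusted p = 0.000198). For both genes the libraries fell into 3 levels, with the fasted genotypes close together.

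Rpl26 had the largest value of all, a rise of 2.00 ± 0.31 (SE; limma adjusted p = 0.00231), and Rpl30 rose by 1.34 ± 0.19 (SE; limma adjusted p = 0.0016). Rpl26, which binds Trp53 mRNA besides its place in the ribosome, had 37.6 and 31.1 FPKM in re-fed LMKO, 19.9 and 11.5 FPKM in re-fed control, 8.89 and 2.88 FPKM in fasted LMKO, and 4.75 and 4.81 FPKM in fasted control libraries. Both genes are among the 6 with uncertain levels. The libraries of Rpl26 differed 3.09-fold within fasted LMKO and 1.73-fold within re-fed control liver, and those of Rpl30 1.77-fold within fasted control liver.

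The stalk proteins, which bring elongation factors to the ribosome, rose by 1.24, 1.06 and 0.61 for Rplp1, Rplp2 and Rplp0. Rplp1 had 1639 and 1520 FPKM in re-fed LMKO, 1146 and 1161 FPKM in re-fed control, 587.2 and 521.1 FPKM in fasted LMKO, and 630.1 and 545.9 FPKM in fasted control libraries, a rise of 1.24 ± 0.09 (SE; limma adjusted p = 0.000256). Rplp2 had 409.0 and 340.3 FPKM in re-fed LMKO, 261.1 and 255.6 FPKM in re-fed control, 147.4 and 146.6 FPKM in fasted LMKO, and 148.2 and 150.2 FPKM in fasted control libraries, a rise of 1.06 ± 0.09 (SE; limma adjusted p = 0.000318). Rplp0, the scaffold that holds the stalk, had 331.9 and 359.7 FPKM in re-fed LMKO, 317.8 and 224.8 FPKM in re-fed control, 207.3 and 183.8 FPKM in fasted LMKO, and 225.4 and 183.2 FPKM in fasted control libraries. Its rise was 0.61 ± 0.14 (SE; limma adjusted p = 0.0103), and its re-fed control and fasted control libraries overlapped. Rplp1 over Rplp0 was 3.61 to 5.16 in re-fed and 2.80 to 2.98 in fasted libraries; the difference between the rises was not tested.

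Rpl5 and Rpl11 travel together with the smallest ribosomal RNA and, when unbound to ribosomes, inhibit Mdm2. Rpl11 had 949.1 and 923.4 FPKM in re-fed LMKO, 645.9 and 641.4 FPKM in re-fed control, 479.0 and 383.5 FPKM in fasted LMKO, and 373.5 and 317.1 FPKM in fasted control libraries, a rise of 1.01 ± 0.11 (SE; limma adjusted p = 0.000622). Rpl5 had 197.8 and 197.9 FPKM in re-fed LMKO, 165.5 and 143.7 FPKM in re-fed control, 147.8 and 130.6 FPKM in fasted LMKO, and 138.4 and 117.2 FPKM in fasted control libraries, a rise of 0.39 ± 0.10 (SE; limma adjusted p = 0.0155). Rpl11 stood clear of its fasted levels in every re-fed library, whereas 1 re-fed control library of Rpl5 lay inside the fasted range. Rpl11 over Rpl5 was 4.80 and 4.67 in re-fed LMKO, 3.90 and 4.46 in re-fed control, 3.24 and 2.94 in fasted LMKO, and 2.70 and 2.71 in fasted control libraries. Of the other large subunit genes followed by name, Rpl13a rose by 1.26, Rpl41 by 1.33, Rpl38 by 1.28, Rpl28 by 1.01, Rpl3 by 0.91, Rpl10 by 0.70, Rpl10a by 0.70 and Rpl34 by 0.69.

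**Figure D3:**
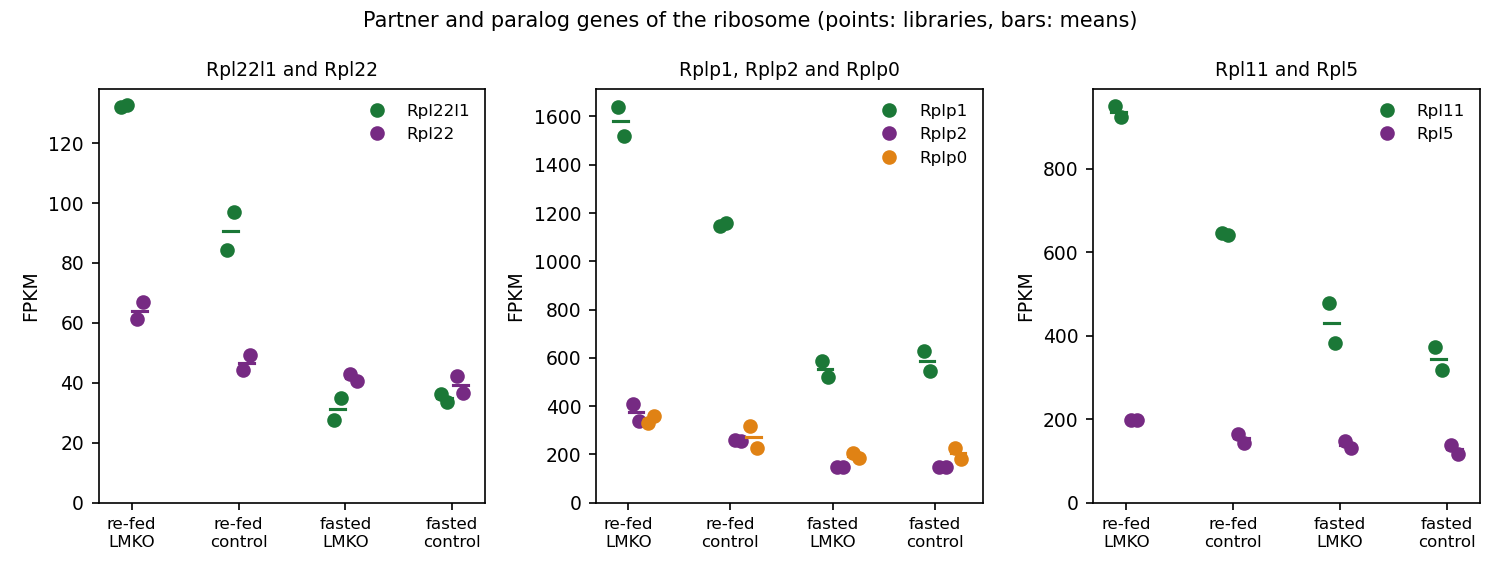
FPKM by library for Rpl22l1 and Rpl22 (left), the stalk genes Rplp1, Rplp2 and Rplp0 (middle) and Rpl11 and Rpl5 (right). Points are libraries and bars are means of 2; each panel has its own axis from 0. Rpl22l1 lies above Rpl22 in the 4 re-fed libraries (ratios 1.91 to 2.15) and below it in the 4 fasted libraries (ratios 0.644 to 0.917).

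In the small subunit, Rps12 rose most. It had 1185 and 1141 FPKM in re-fed LMKO, 782.4 and 716.0 FPKM in re-fed control, 372.8 and 361.4 FPKM in fasted LMKO, and 357.0 and 349.5 FPKM in fasted control libraries, a rise of 1.37 ± 0.08 (SE; limma adjusted p = 0.000148). Libraries of a group lay close together, and the 2 fasted groups lay close to each other. Rps21 rose by 1.26 ± 0.10 (SE; limma adjusted p = 0.000297), and Rpsa, which doubles as a laminin receptor at the cell surface, by 1.13 ± 0.09 (SE; limma adjusted p = 0.00025).

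Rps6, the classical substrate of the S6 kinases downstream of mTORC1, had one of the smaller rises. It had 400.9 and 389.9 FPKM in re-fed LMKO, 313.0 and 277.8 FPKM in re-fed control, 250.2 and 230.2 FPKM in fasted LMKO, and 235.3 and 210.7 FPKM in fasted control libraries, a rise of 0.56 ± 0.09 (SE; limma adjusted p = 0.00253). Every re-fed library was above every fasted one. Rps3, which also has a part in DNA repair, rose by 0.59 ± 0.09 (SE; limma adjusted p = 0.00236), with 182.0 and 180.1 FPKM in re-fed LMKO, 152.8 and 133.2 FPKM in re-fed control, 121.0 and 107.4 FPKM in fasted LMKO, and 104.4 and 93.5 FPKM in fasted control libraries. Between these ends lay Rps24 with a rise of 1.06, Rps27l with 1.03, Rps15a with 0.99, Rps28, Rps4x and Rps27a with 0.96 each, and Rps18 with 0.82.

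Rps27 was the single member that fell, and it was the lowest in level. It had 1.72 and 1.30 FPKM in re-fed LMKO, 1.40 and 1.38 FPKM in re-fed control, 2.33 and 1.93 FPKM in fasted LMKO, and 1.86 and 2.53 FPKM in fasted control libraries. Its log2 fold change was -0.36 ± 0.11 (SE; limma adjusted p = 0.0271), and -1.05 with a trend on transcript length removed (limma adjusted p = 0.00159). Re-fed and fasted libraries did not overlap, and all values lay near the filter of 1 FPKM. The call was lost in 6 of 20 alternatives, whose adjusted p ran from 0.00159 to 0.0873: with no filter on low values, and without re-fed LMKO 2, re-fed control 1, re-fed control 2, fasted LMKO 1 or fasted control 2. Rps4y2 had 29.5 and 12.8 FPKM in re-fed LMKO, 23.8 and 21.3 FPKM in re-fed control, 11.6 and 12.2 FPKM in fasted LMKO, and 6.01 and 9.19 FPKM in fasted control libraries, a rise of 1.07 ± 0.26 (SE; limma adjusted p = 0.0119). The 2 re-fed LMKO libraries of this locus stood far apart.

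Taken within each genotype, re-feeding raised 79 members in LMKO liver, all 48 of the large subunit and 31 of 33 of the small subunit, with a median log2 fold change of 1.15. Among all loci 23.2% rose and 16.3% fell in LMKO liver. The 2 members not called there were Rps27 (-0.32 ± 0.15, SE; limma adjusted p = 0.138) and Rps4y2 (0.67 ± 0.36, SE; limma adjusted p = 0.181). In control liver re-feeding raised 75 members, 43 of the large and 32 of the small subunit, with a median of 0.75, where 22.8% of all loci rose and 10.5% fell. Among the members not called in control liver were Rps27, Rpl22, Rpl5, Rplp0 and Rpl29, with log2 fold changes of -0.41, 0.24, 0.27, 0.39 and 0.58.

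The size of the response was ordered alike in both genotypes. Across the 81 members the log2 fold change in LMKO and that in control liver had a Pearson r of 0.837 and a Spearman rho of 0.828, and r was 0.904 over the 75 members that averaged at least 20 FPKM. The points share library depth and transcript length, and genes are not independent. With the fit limited to the 4 control libraries 47 members rose in control liver, where 1425 of all loci rose, against 2473 with all libraries. Leaving out any single library also lowered the control count, most without fasted control replicate 2. The median over members was then 0.67 to 0.85.

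The second comparison set LMKO against control liver in the re-fed state. No member passed the adjusted threshold (limma; smallest adjusted p = 0.206), where 0.0276% of all loci were called higher and 0.0736% lower. At an unadjusted p under 0.05, 72 members were higher and 0 lower in LMKO liver, 42 of the large and 30 of the small subunit, against 7.11% of all loci higher. That count of 72 was 39 under quantile normalization, 47 with the length trend removed and 46 with equal summed FPKM per library, against 5.67%, 5.83% and 2.44% of all loci. Leaving out any single library lowered it too, and the median over members was then 0.51 to 0.52. The log2 fold change was positive in 80 of 81 members, against 51.5% of all loci, with a median of 0.52 for the large and 0.51 for the small subunit, against 0.01 over all loci. Both re-fed LMKO libraries lay above both re-fed control libraries in 77 members, against 25.6% of all loci, and below them in 0, against 19.4% of all loci.

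The members with the smallest p in that comparison were Rps12, Rpl38 and Rps27a. Rps12, with the 4 values given above, had a log2 fold change of 0.63 ± 0.11 (SE; limma adjusted p = 0.206). Rpl38, a protein with a known part in translating patterning mRNAs in the mouse embryo, had 1495 and 1544 FPKM in re-fed LMKO, against 797.0 and 919.7 FPKM in re-fed control libraries, 0.83 ± 0.15 (SE; limma adjusted p = 0.206). Rps27a, made as a fusion with ubiquitin, had 620.0 and 627.0 FPKM in re-fed LMKO, against 403.6 and 399.8 FPKM in re-fed control libraries, 0.63 ± 0.12 (SE; limma adjusted p = 0.237). These values sit apart by more than the spread within each pair of libraries, but none passed adjustment over all loci. The re-fed LMKO libraries of Rpl29 differed 1.58-fold, with 288.5 and 456.3 FPKM in re-fed LMKO, against 209.9 and 188.7 FPKM in re-fed control libraries.

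Markers of other cell types were also set side by side for the genotypes in the re-fed state. Kupffer cell and macrophage markers summed to 56.6 and 86.1 FPKM in re-fed LMKO, against 96.9 and 124.6 FPKM in re-fed control libraries, with a median log2 fold change of -0.55. The sums of 9 stellate cell markers were 74.9 and 95.8 FPKM in re-fed LMKO, against 95.5 and 121.0 FPKM in re-fed control libraries, with a median of -0.50. For sinusoidal endothelial markers the sums were 77.6 and 56.3 FPKM in re-fed LMKO, against 69.6 and 79.4 FPKM in re-fed control libraries, with a median of -0.34. The medians of the 5 tested red blood cell and the 2 tested neutrophil markers were 0.58 and 0.96, and that of the 11 tested hepatocyte markers was -0.03. The stellate cell and sinusoidal endothelial sums overlapped between the genotypes, while those of Kupffer cell and macrophage markers did not. None of these markers was called higher or lower, and their part in the ribosomal protein values was not tested.

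In the fasted state the genotypes lay closer. No member was called (limma; smallest adjusted p = 0.344), where 0.0184% of all loci were called higher and 0.147% lower, and 1 member, Rpl13a, was higher at an unadjusted p under 0.05, against 8.79% of all loci. The median log2 fold change was 0.12 for the large and 0.17 for the small subunit, against 0.08 over all loci, and 69 members were positive (85.2%), against 64.8% of all loci. Both fasted LMKO libraries lay above both fasted control libraries in 27 members and below them in 2, against 33.0% and 12.8% of all loci. Rpl13a, a protein that in human cells also silences inflammatory mRNAs when released from the ribosome, had 249.5 and 216.2 FPKM in fasted LMKO, against 184.7 and 184.7 FPKM in fasted control libraries, 0.33 ± 0.12 (SE; limma adjusted p = 0.344). Rps24 and Rpl28 followed with 0.28 ± 0.12 and 0.29 ± 0.13 (SE; limma adjusted p = 0.408 and 0.452). Under median-ratio scaling of the libraries the median over members was 0.04 and 55 members were positive.

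With both feeding states averaged, LMKO over control was positive in all 81 members, against 60.3% of all loci, with a median of 0.29 for the large and 0.35 for the small subunit. No member was called (limma; smallest adjusted p = 0.0985, Rpl13a), where 0.0920% of all loci were called higher and 0.221% lower, while 64 members were higher at an unadjusted p under 0.05, against 10.8% of all loci. The 64 became 37 under quantile normalization, 44 with the length trend removed and 38 with equal summed FPKM per library, against 7.86%, 8.37% and 4.78% of all loci. Rpl13a was at 0.46 ± 0.08 (SE), Rps24 at 0.44 ± 0.08 (SE; limma adjusted p = 0.107) and Rpl38 at 0.53 ± 0.10 (SE; limma adjusted p = 0.121).

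The third comparison, the interaction, asked whether the re-feeding response itself differed between genotypes. The response was larger in LMKO liver in 80 of 81 members, against 41.9% of all loci, the exception being Rps4y2 (-0.81 ± 0.51, SE; limma adjusted p = 0.635). The median difference was 0.38 for the large and 0.34 for the small subunit, against -0.06 over all loci. No member was called (limma; smallest adjusted p = 0.507), where 0.0184% of all loci were called in each direction. At an unadjusted p under 0.05 were 17 members, all larger in LMKO liver, against 3.25% of all loci. This count changed with the scaling: it was 52 under median-ratio scaling, 9 with the length trend removed, and 3 both under quantile normalization and with equal summed FPKM per library, against 5.48%, 4.29%, 4.58% and 1.82% of all loci. It was 7 with a replicate block, against 2.70% of all loci. Leaving out single libraries also changed it, and the median difference over members was then 0.28 to 0.46. The smallest p values belonged to Rps12 (0.58 ± 0.16, SE), Rpl22l1 (0.71 ± 0.21, SE) and Rpl10a (0.51 ± 0.16, SE), each with a limma adjusted p = 0.507. A larger re-feeding response in LMKO liver was thus a shared direction of the members that no single member's test called.

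**Figure D4:**
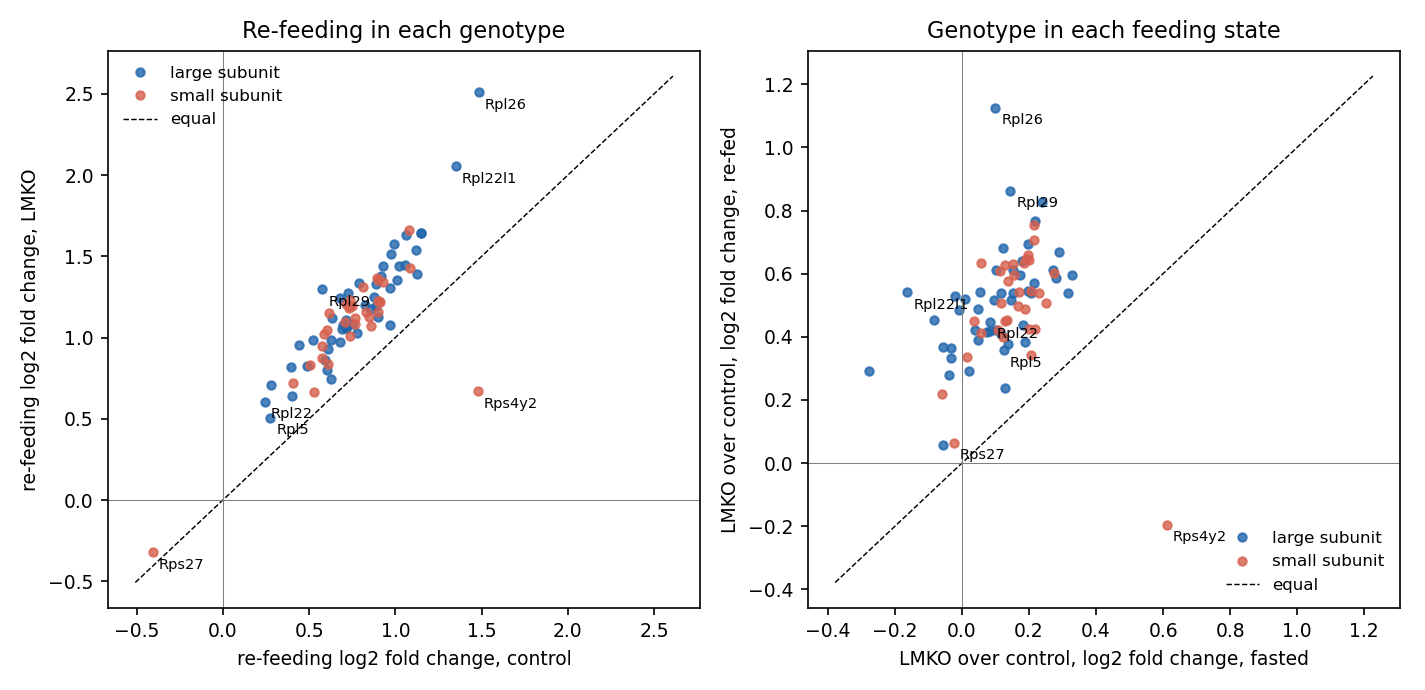
Left: re-feeding log2 fold change of each member in LMKO (vertical) against control liver (horizontal). Right: log2 fold change of LMKO over control in the re-fed (vertical) against the fasted state (horizontal); the dashed line marks equal values, blue the large and red the small subunit. In both panels the same 80 of 81 members lie above the line and Rps4y2 lies below it, because the height above the line is the same interaction value in each.

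Transcript length moved with the libraries, and the members are short. Their longest annotated transcripts had a median of 914 bases, against 2971 bases over all loci tested, and 48 of them were under 1000 bases, as were 759 of all loci with a length. Across loci other than the members, the deviation of a locus in a library from its mean over libraries correlated with log2 transcript length at -0.371, -0.344, -0.018 and -0.338 in re-fed LMKO 1 and 2 and re-fed control 1 and 2, and at 0.262, 0.301, 0.274 and 0.232 in fasted LMKO 1 and 2 and fasted control 1 and 2. The correlation was thus weak, negative in 3 of 4 re-fed libraries, near 0 in re-fed control 1 and positive in all fasted ones.

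In each class of longest annotated transcript that held 6 or more members, their median was above that of the other loci. The longest transcript need not be the one present in liver, so a locus can be classed as longer than its mRNA. Under 500 bases the 9 members had a median re-feeding log2 fold change of 0.97, against 0.82 for 143 other loci. From 500 to under 1000 bases the 39 members had 0.999, against 0.63 for 568 other loci. From 1000 to under 2000 bases the 26 members had 0.91, against 0.39 for 2295 other loci, and from 2000 to under 4000 bases the 6 members had 0.77, against 0.12 for 4241 other loci. For LMKO over control in the re-fed state the medians of members were 0.64, 0.54, 0.44 and 0.43 in these classes, against 0.14, 0.26, 0.13 and 0.02 for other loci.

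With the trend on length subtracted in each library, with the members included in the trend, 59 members rose on re-feeding, 37 of the large and 22 of the small subunit, and 1 fell, with a median of 0.43 over all members, where 22.7% of all loci rose and 21.7% fell. In LMKO liver 46 rose and 1 fell, where 14.8% of all loci rose and 13.8% fell. In control liver 19 rose and 1 fell, where 12.6% of all loci rose and 11.9% fell. The medians over members were 0.52 in LMKO and 0.31 in control liver. Rpl22l1, Rpl39, Rpl12 and Rps12 remained called over both genotypes, while among the genes named above Rpl5, Rpl7, Rpl10, Rpl10a, Rpl22, Rpl29, Rpl34, Rplp0, Rps4y2, Rps6, Rps18 and Rps28 were not. Their log2 fold changes then ran from -0.00401 (Rps6) to 0.53 (Rps4y2), with 0.13 for Rpl10, 0.12 for Rpl10a, 0.07 for Rpl34, 0.16 for Rps18 and 0.27 for Rps28. The median of LMKO over control when re-fed was 0.38, with 78 of 81 members positive. Whether the length trend reflects RNA quality, library preparation or the tissue was not tested.

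**Figure D5:**
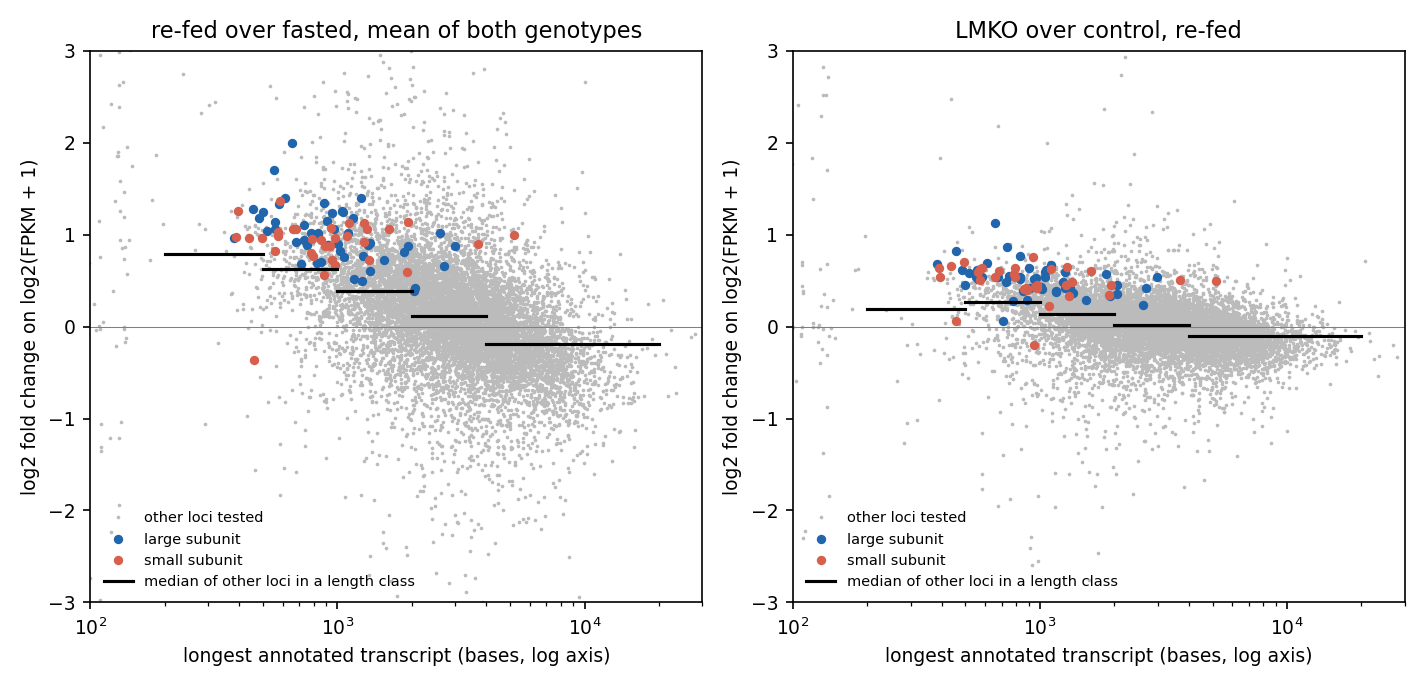
Log2 fold change of each locus against its longest annotated transcript (log axis) for re-fed over fasted libraries (left) and LMKO over control in the re-fed state (right). Grey points are other loci, blue and red points are large and small subunit members, and bars are medians of other loci in a length class; loci beyond 3 in either direction are not drawn. From 500 bases up the bars fall with length in both panels, on the left from 0.63 at 500 to under 1000 bases to -0.19 at 4000 bases or more, and most members lie above them.

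The members were set beside other genes of the translation machinery over both genotypes, where 32.4% of all loci rose and 20.6% fell. Ribosomal proteins that the symbol rule misses also rose: Fau by 0.53, Rpl36al by 1.25 and Gnb2l1, the scaffold now called Rack1, by 0.72, with limma adjusted p values of 0.00508, 0.000347 and 0.00157. Of 76 mitochondrial ribosomal protein genes, whose products translate the respiratory chain proteins encoded in mitochondria, 74 rose and 0 fell (median 0.72). Mrps12 rose by 1.50, Mrps28 by 1.19 and Mrpl42 by 1.03. The rise was therefore not limited to cytosolic ribosomal proteins. Loci of 500 to under 1000 bases other than the members also had a median of 0.63, and 86.4% of them were positive. The part of transcript length in the mitochondrial values was not tested. In LMKO over control when re-fed, the mitochondrial set had a median of 0.26, against 0.01 over all loci. In that comparison 24 of 76 (31.6%) were higher at an unadjusted p under 0.05, against 7.11% of all loci. Of the 76, 0 were called, where 0.0276% of all loci were called higher and 0.0736% lower.

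Other genes whose mRNAs carry a TOP motif were mixed. Of 21 elongation factors and other TOP genes, 8 rose (38.1%) and 5 fell (23.8%) on re-feeding, near the shares of all loci, with a median of 0.15. Eef1g and Eef1b2, subunits of the factor that recharges the elongation factor Eef1a, rose by 0.89 and 0.74, while Eif4b fell by 1.19, Pabpc1, the poly(A)-binding protein, fell by 0.91, Npm1 fell by 0.62 and Eef2, the translocase, fell by 0.51 (log2 values; limma adjusted p values of 0.0128 or lower). Eef1a1 was at -0.14 (limma adjusted p = 0.251). Longest transcripts of Eif4b, Pabpc1, Eef2 and Npm1, which fell, have 3854, 2817, 3089 and 1633 bases. Those of Eef1g and Eef1b2 have 1864 and 1939 bases, and that of Eef1d, which rose by 0.52 (limma adjusted p = 0.00248), has 2842 bases. The longest annotated transcript need not be the one present in liver, and the part of length in these changes was not tested.

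Of 31 translation initiation factors 15 rose (48.4%) and 4 fell (12.9%), against 32.4% and 20.6% of all loci, with Eif5a at 0.98, Eif3i at 0.70 and the cap-binding protein Eif4e at 0.63 among those that rose. Of 58 ribosome biogenesis genes 26 rose (44.8%) and 2 fell (3.45%), with Nhp2 at 1.27 and the ribosomal RNA methyltransferase Fbl at 0.71 among those that rose. Of 21 genes listed for mTORC1 and S6 kinase control, not all of them in 1 pathway, 1 rose (4.76%) and 9 fell (42.9%). Among those that fell were Mtor itself (-1.17, limma adjusted p = 0.00256) and its inhibitor Deptor (-1.19, limma adjusted p = 0.00186). Tsc1 (-0.67, limma adjusted p = 0.00245) and the kinase Rps6ka3 (-0.70, limma adjusted p = 0.001) fell too. Of 9 Myc family genes 1 rose (11.1%; Mlx, 0.94) and 5 fell (55.6%), among them Mycl1 (-1.12) and Mga (-0.57), and Myc itself was at -1.25 ± 0.63 (SE; limma adjusted p = 0.137). Loci with a longest transcript of 4000 bases or more, other than the members, had a median re-feeding log2 fold change of -0.19. Of them 31.1% were positive. The part of transcript length in the changes of these lists was not tested. None of these lists held a gene called between LMKO and control in the re-fed state. In the fasted state 1 was called: Mycl1 had 1.75 and 1.18 FPKM in fasted LMKO, against 8.28 and 6.96 FPKM in fasted control libraries, and was called lower at -1.81 on the log2 scale (limma adjusted p = 0.0244). Its values were 0.854 and 0.556 FPKM in re-fed LMKO, against 1.93 and 1.33 FPKM in re-fed control libraries, and with both feeding states averaged the difference was -1.22 (limma adjusted p = 0.0225).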

How the data were processed

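Each of the 8 libraries was deposited as 1 list of 23699 loci with a position, a symbol and an FPKM value that the authors computed. Per the submitters' processing notes, TopHat 1.4.1, SAMtools 1.4.1 as listed there, Cufflinks 2.0.2, Cuffdiff 2.0.2 and the build mm9 were used; any scaling beyond FPKM and the treatment of reads with several matches are not given in the sources used here. Deposited starts count from 0 and are printed 1 higher. Groups came from the sample labels, with 2 mice per group per the series text.

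The deposited FPKM values were used unscaled. The 10865 loci that reached 1 FPKM in 2 or more libraries were tested. limma 3.58.1 in R 4.3.3 was fitted to log2(FPKM + 1) with 4 group means in 1 model and a mean-variance trend (4 residual and 2.74 prior degrees of freedom), p-values were adjusted by Benjamini-Hochberg over all loci in each comparison, and adjusted p under 0.05 was called. Fold changes are on that scale, which understates changes of low genes. Count models and counting intervals were left out, since FPKM values are not counts. The fit was tested on simulated data. Transcript lengths are the longest annotated GENCODE M21 transcript of a symbol, on another build than mm9 and used for length only; promoters are RefSeq windows on GRCm38.p6.

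The members and gene lists were chosen with earlier results of these data known. Genes were named by role (stalk, Rpsa, Rps6, Rps3, Rpl5, Rpl11, Rpl13a, paralogs and their parents), by the largest called changes or the smallest p where none was called, by highest and lowest level and by widest range; Rpl29, and the genes other than the top 3 by p of each compared list, were named after their values were seen. Some single genes are not reported here. Alternatives were other pseudocounts and filters, median-ratio scaling, quantile normalization, removal of the length trend, other variance settings, a replicate block, fits on the 4 libraries of a comparison, and leaving out each library; equal summed FPKM per library was added after seeing the data.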

Additional observations from a re-analysis of the deposited data

How the results depend on the processing

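Over both genotypes, 59 to 80 members rose on re-feeding under every alternative that kept all 8 libraries, against 18.8% to 39.2% of all loci. The member median was 0.96, and 0.85 under median-ratio scaling, 0.50 under quantile normalization and 0.43 with the length trend removed. It was 0.69 with equal summed FPKM per library (chosen after seeing the data) and 0.91 to 1.02 without single libraries. In LMKO liver the count of 79 became 46 with the length trend removed, against 14.8% of all loci, and the median of 1.15 became 0.52. That median was 0.60 under quantile normalization, 0.82 with equal summed FPKM and 1.07 to 1.22 without single libraries. In control liver the count of 75 became 33 under quantile normalization, 19 with the length trend removed, 48 with equal summed FPKM, 47 with only the 4 control libraries and 44 to 72 without single libraries (44 without fasted control replicate 2); the median of 0.75 became 0.60 under median-ratio scaling, 0.37 under quantile normalization, 0.31 with the length trend removed, 0.53 with equal summed FPKM and 0.67 to 0.85 without single libraries. For LMKO over control when re-fed the median of 0.52 became 0.31 under quantile normalization, 0.38 with the length trend removed and 0.37 with equal summed FPKM (0.51 to 0.52 without single libraries). When fasted the median of 0.14 became 0.0396 under median-ratio scaling and 0.0466 to 0.242 without single libraries (0.242 without fasted control replicate 1), and with states averaged the median of 0.32 became 0.21 under quantile normalization. The median interaction of 0.37 became 0.20 under quantile normalization, 0.26 with equal summed FPKM and 0.28 to 0.46 without single libraries (0.28 without fasted control replicate 1). No member was called in a genotype comparison or the interaction under any alternative run. As shares of summed FPKM, the sum ratios of 2.27, 1.73 and 1.45 became 1.80, 1.49 and 1.30.

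Single genes that turned sign in control liver were Rpl10a (-0.0725), Rpl22 (-0.0239), Rpl7 (-0.0477), Rplp0 (-0.0144) and Rps6 (-0.0991) with the length trend removed, and Rpl22 (-0.0534), Rpl5 (-0.103), Rpl7 (-0.011) and Rps6 (-0.00467) under quantile normalization. Over both genotypes Rpl5 (-0.0293) and Rpl7 (-0.0103) turned under quantile normalization and Rps6 (-0.00401) with the length trend removed, and in LMKO liver Rpl7 (-0.00958) turned under quantile normalization. The cause was not tested.

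Median-ratio scaling gave a median of all loci on re-feeding of 0.01, against 0.10 with the deposited values, with 3001 loci higher and 2874 lower, against 3523 and 2242; equal summed FPKM gave 2048 higher and 3630 lower. Loci called over all alternatives ran from 5 to 14 for LMKO over control when re-fed (11 with the deposited values), 8 to 57 when fasted (18), 18 to 55 with states averaged (34), 0 to 16 for the interaction (4), 1539 to 3685 for re-feeding in control (3610) and 2193 to 4453 in LMKO liver (4296). Same-numbered libraries did not deviate together over all loci (correlations of -0.084 to -0.008). Low correlations of this kind cannot exclude that same-numbered samples were paired. With a replicate block 80, 79 and 72 members rose on re-feeding over both genotypes, in LMKO and in control liver. Of all loci 30.6%, 20.5% and 19.0% rose in these fits. The block gave 0 members called in the genotype comparisons and the interaction. Since depth is unknown, no counting error can be given for low members.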
